A study of Mus musculus with 6 samples.

Results

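Notch signalling keeps neighbouring progenitors of the embryonic nervous system from turning into neurons at the same time, and 10 genes of this pathway were followed here in mouse neural progenitor cells (NPCs) that had lost Ybx1. They were the receptors Notch1, Notch2 and Notch3, the ligands Dll1, Dll3 and Jag1, and the Hes and Hey family genes Hes1, Hes5, Hes6 and Hey1. The genes were chosen by name for their place in the pathway, and each was found as a single row among the 51733 gene rows of the RNA-seq tables. All 10 passed the filter on low values and were among the 21329 genes tested.

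Ybx1 encodes a protein that binds DNA and RNA, and the question was how gene expression in NPCs differed without it. RNA was sequenced from Sox2-positive cells sorted from neural tubes of embryos at E13.5, in 3 control libraries and 3 Ybx1-KO libraries. The Ybx1-KO embryos were homozygous for the Ybx1tm1Ley allele and the controls were wild-type siblings. Embryos of both groups carried a Sox2-eGFP reporter, whose fluorescence was used for the sort, and the study used embryos of both sexes. The sources do not say whether a library came from 1 embryo or from several. Ybx1 is missing from every tissue of a Ybx1-KO embryo, so its sorted cells had also developed among mutant neighbours. The libraries are called control 1 to 3 and Ybx1-KO 1 to 3. Control 1 and control 2 share a number in their titles, as do Ybx1-KO 1 and Ybx1-KO 2, and nothing says that it marks a litter or that libraries are separate embryos. The p-values therefore measure only the spread between these libraries.

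A Notch receptor is cut when a ligand on a neighbouring cell binds and pulls on it, and its released intracellular part enters the nucleus. There it joins the DNA-binding protein RBPJ and switches on target genes, among them Hes1, Hes5 and Hey1, whose products repress the proneural genes that start neuronal differentiation. Cells that escape this repression make Dll1 and Dll3, and so the pathway keeps progenitors and newborn neurons side by side in the ventricular zone.

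Hes5 held the only matches to a full RBPJ motif among the promoter windows searched. The windows ran from 250 bases before to 50 bases after the RefSeq start on GRCm38.p6, and 8 of the 10 genes had a window. The 2 stretches below are written 5′ to 3′ on the strand of Hes5, on chromosome 4, and the capitals mark the motif GTGGGAA or its reverse complement.
Hes5, chr4:154960830-154960856: gccgccgagtGTGGGAAcggccgcggc
Hes5, chr4:154960687-154960713: ggcgagcgcgTTCCCACagcccggaca
The motif begins 83 bases before the Hes5 start in the former stretch and 226 bases before it in the latter, where it lies on the opposite strand. Both strands were searched, and GTGGGAA occurred in 6.38% of all 32851 promoter windows. The shorter form TGGGAA, which is contained in GTGGGAA, occurred in 25.6% of all windows and among the searched genes again in Hes5 alone. The N-box CACNAG, a sequence that Hes proteins bind, was found in the windows of Hes6, Notch1, Notch2, Dll1 and Notch3 and in 42.5% of all windows. The E-box CACGTG occurred in 7.15% of all windows and in none of those searched for these genes. Such matches describe letters in a window and say nothing on binding. No window was read for Hes1 or Hey1.

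The libraries held 4743279 to 23883542 counts on genes, and every Ybx1-KO library was shallower than every control library. A level of 3 counts corresponded to 0.126 CPM, the count scaled to a common library size, in the deepest library and 0.632 CPM in the shallowest. Values below are CPM on library sizes scaled by TMM, a trimmed mean of log ratios between libraries, unless another scale is named. Ybx1 itself stood at 235, 523 and 301 CPM in the controls and, in Ybx1-KO, at 124, 54.5 and 9.51 CPM. Every Ybx1-KO library was below every control library, with transcripts still counted in each, and the exact permutation test gave the smallest two-sided p that 3 against 3 libraries allow, 0.1.

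Ybx1-KO 3 stood apart. It was the shallowest library, and 59.5% of its read pairs were assigned to no counted gene feature, against 30.6 to 46.7% in the others. Where these pairs lay in the genome was not read. On the unscaled count on genes, not the TMM size, olfactory and vomeronasal receptor genes summed to 4520 CPM against 13.1 to 90.0 CPM. NPCs should not express these genes. If those counts measure a level spread evenly over exons, it would make up between 1.71% of the Hes5 count and 17.1% of the Hes1 count in Ybx1-KO 3, and at most 1.04% of the count of any of the 10 genes in any other library. Subtracting it left every one of the 10 fold changes positive. Sox2, the gene used for the sort, was present in every library, at 17.2, 42.3 and 47.6 CPM in the controls and 33.0, 49.8 and 23.8 CPM in Ybx1-KO 1, 2 and 3.

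All 10 genes had a higher fitted level in the Ybx1-KO libraries, and none passed the test. The test was the quasi-likelihood F-test of edgeR, Benjamini-Hochberg adjusted over all genes, and a call needed both an adjusted p below 0.05 and a fold above 1.5. It called 0 of the 10, where 0% of all genes tested were called. An unadjusted p below 0.05 was reached by 5 of the 10, all higher in Ybx1-KO, beside 6.96% of all genes in that direction. A fold change above 0 was found for 61.3% of all genes, whose median log2 fold change was 0.31. The median of the 10 was 1.05. With total counts in place of TMM the medians were 0.51 over all genes and 1.21 over the 10. Called genes also numbered 0 by limma-voom, and 214 by DESeq2, which is 1.00% of the genes tested, with Notch3 the only one of the 10. At these thresholds the study itself reported called genes in both directions from its own limma-voom fit, which the fit here did not reproduce.

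Notch3, Dll3 and Hes5, 3 of the 10 genes, were higher in each Ybx1-KO library than in any control. Over all genes tested, 4.99% showed such a separation in that direction. There was 1 such gene among the receptors, 1 among the ligands and 1 among the Hes and Hey genes. Leaving out Ybx1-KO 3 made it 6 of the 10, with Notch1, Dll1 and Hes1 added, where 9.67% of all genes lay wholly higher. The share of all genes with a fold change above 0 was then 40.1%, and all 10 were still positive. Leaving out control 2 also made it 6, with Notch1, Dll1 and Jag1 added, where the share of all genes was 8.46%. Since these are bulk libraries, more cells of a type and more RNA per cell cannot be told apart at any of these genes.

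**Figure D1:**
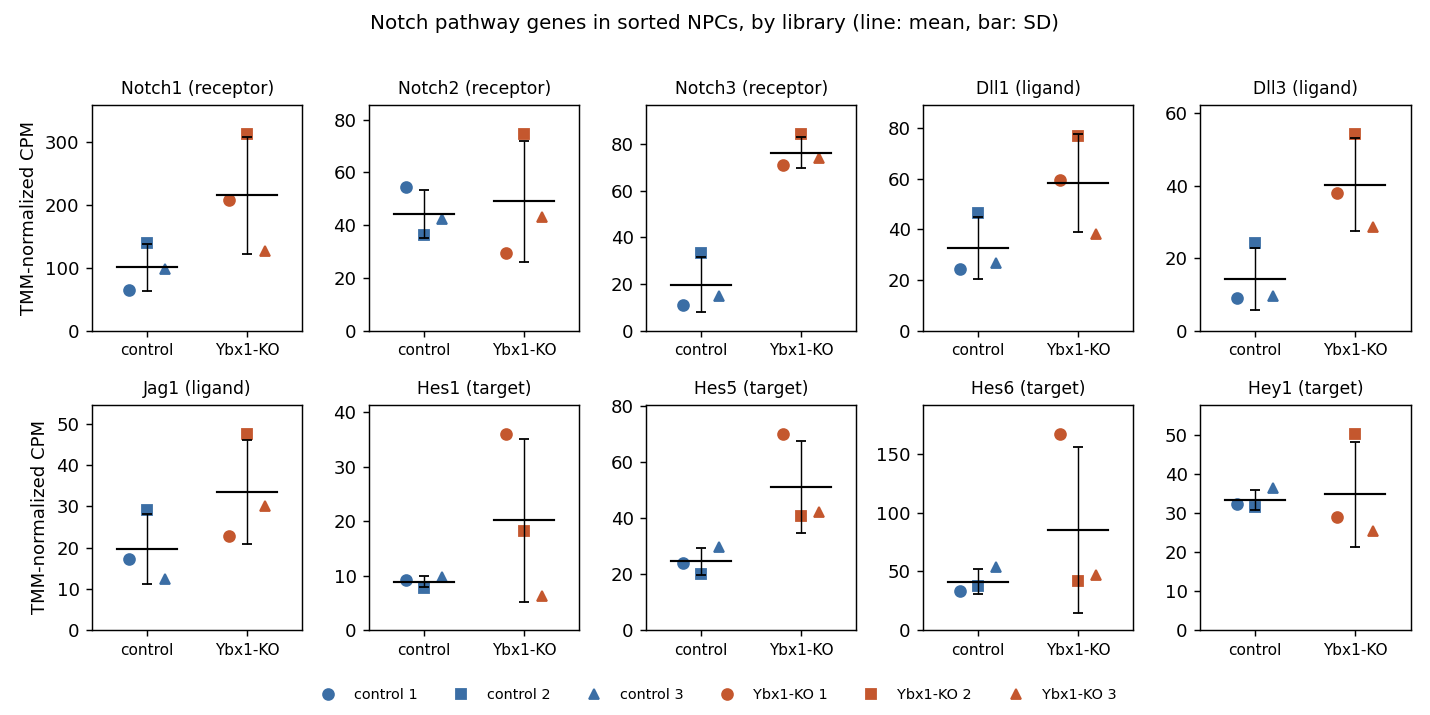
TMM-normalized CPM of each of the 10 genes in the 3 control and 3 Ybx1-KO libraries, 1 panel a gene with its own axis from 0, where points are libraries, the horizontal line is the mean and the bar is the SD. Notch3, Dll3 and Hes5 have every Ybx1-KO point above every control point, and Hes6 owes its high Ybx1-KO mean to the 167 CPM of Ybx1-KO 1.

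Notch3 differed most. It is a receptor of neural progenitors that is also strong in the mural cells of blood vessels, and it lies on chromosome 17 at 32120820-32166852 on the minus strand (GRCm38, GENCODE M21, as for all genes below). Its level was 11.2, 33.3 and 14.8 CPM in control 1, 2 and 3, from 237, 722 and 295 counts. In Ybx1-KO 1, 2 and 3 it was 71.2, 84.2 and 74.0 CPM, from 638, 824 and 529 counts. The Ybx1-KO libraries lay close together, and the lowest of them was 2.14 times the highest control, which was control 2. The means were 19.7 ± 11.8 and 76.5 ± 6.85 CPM (SD, n = 3 each). The log2 fold change was 1.95 with an SE of 0.438, and the Benjamini-Hochberg adjusted p from edgeR was 0.208. Its unadjusted p of 0.000362 in that fit was number 37 in rank among the 21329 genes. The two-sided exact permutation test gave p = 0.1, the smallest possible. Gm17276, on the other strand, shares 488 exonic bases with Notch3 and had 9 to 24 counts in each library.

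The call on Notch3 depended on the tool and on single libraries. DESeq2 gave an adjusted p of 0.0017 and limma-voom one of 0.146. With edgeR, again Benjamini-Hochberg adjusted, leaving out control 2, whose level was the highest among the controls, gave 0.0181, and leaving out Ybx1-KO 2 gave 0.0191. Without any other single library and with the same genes, Notch3 was not called, and the log2 fold change ran from 1.68 to 2.56 over the 6 omissions. It was also called without Ybx1-KO 1 once the filter was run again on the remaining libraries. In every one of the 24 alternative fits Notch3 was separated between the groups and higher in Ybx1-KO. Many of these fits leave out a library or reuse the same normalized values, so they could hardly undo a separation.

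The other marker genes of mural cells were also read in each library. The 10 of them with rows summed to 79.9, 39.9 and 48.7 CPM in the controls and to 11.2, 71.1 and 77.8 CPM in Ybx1-KO 1, 2 and 3. Ybx1-KO 1 had the lowest sum of all, with 2 of the 10 at 0, and its Notch3 level was 71.2 CPM. The 14 endothelial genes summed to 70.0, 34.3 and 37.3 CPM in the controls and to 19.9, 33.2 and 100.2 CPM in Ybx1-KO 1, 2 and 3, with 3 of them at 0 in Ybx1-KO 1. The level spread over exons in Ybx1-KO 3 was not subtracted from these sums. The part of vessel cells in the Notch3 difference was not tested.

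Notch1, the main receptor of the early ventricular zone, lies on chromosome 2 at 26457903-26516663 on the minus strand. It stood at 64.4, 140.1 and 97.3 CPM in the controls and, in Ybx1-KO, at 207, 312 and 127 CPM. Control 2 was above Ybx1-KO 3, and the groups overlapped by that pair alone. The means were 100.6 ± 38.0 and 215 ± 92.99 CPM (SD, n = 3 each), a log2 fold change of 1.10 with an SE of 0.460. Its Benjamini-Hochberg adjusted p from edgeR was 0.444, and the exact permutation test gave 0.2. Notch1 shares 1068 exonic bases with 0610009E02Rik on the other strand, whose count was 42.7% of the Notch1 count in Ybx1-KO 1 and between 5.04 and 14.0% in the other libraries. The strand setting of the counting is not given in the sources used here, so reads of the shared stretch cannot be assigned to either gene.

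Notch2, a receptor of progenitors and of the choroid plexus and meninges, lies on chromosome 3 at 98013527-98150361 on the plus strand. It stood at 54.3, 36.2 and 42.2 CPM in the controls and, in Ybx1-KO, at 29.6, 74.4 and 43.2 CPM. The Ybx1-KO libraries were the lowest and the highest of the 6, and the groups overlapped throughout. At a log2 fold change of 0.15 with an SE of 0.406, Notch2 had a Benjamini-Hochberg adjusted p of 0.876 (edgeR). It was negative without Ybx1-KO 2, at -0.28. Gm42820, on the same strand, shares 541 exonic bases with Notch2. Its count was 14.2% of the Notch2 count in Ybx1-KO 3 and between 1.22 and 2.25% in the other libraries.

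Among the ligands, Dll3 was separated between the groups. Dll3 is a divergent Delta protein that does not activate receptors on neighbouring cells and is made by cells leaving the progenitor state. It lies on chromosome 7 at 28293553-28302238 on the minus strand. Its level was 8.93, 24.1 and 9.45 CPM in the controls and 37.8, 54.1 and 28.7 CPM in Ybx1-KO 1, 2 and 3. Ybx1-KO 3 was 1.19 times control 2, the nearest pair, while control 1 and control 3 were far below. The means were 14.2 ± 8.64 and 40.2 ± 12.9 CPM (SD, n = 3 each). Dll3 had a log2 fold change of 1.5 with an SE of 0.457 and a Benjamini-Hochberg adjusted p of 0.365 (edgeR), and the exact permutation test gave 0.1. Without control 2 the log2 fold change was 2.13. In the no-filter alternative the groups overlapped at Dll3. The single call on Dll3 came without Ybx1-KO 1 and with the filter run again, where edgeR gave an adjusted p of 0.0282.

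Dll1, the Delta ligand that newborn neurons present to progenitors, lies on chromosome 17 at 15367354-15376872 on the minus strand. It stood at 24.5, 46.5 and 26.8 CPM in the controls and, in Ybx1-KO, at 59.5, 76.9 and 38.2 CPM. As for Notch1, the overlap was that of control 2 with Ybx1-KO 3. Its log2 fold change of 0.84, with an SE of 0.406, had a Benjamini-Hochberg adjusted p of 0.447 (edgeR). Dll1 shares 867 exonic bases with A930024N18Rik on the other strand, which had 238, 408 and 267 counts in the controls and 77, 214 and 152 in the Ybx1-KO libraries.

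Jag1, a ligand of the Serrate type that marks its own domains along the neural tube and is also made by vessels, lies on chromosome 2 at 137081456-137116644 on the minus strand. It stood at 17.3, 29.1 and 12.5 CPM in the controls and, in Ybx1-KO, at 22.8, 47.5 and 30.2 CPM. Ybx1-KO 1 was below control 2, and the other Ybx1-KO libraries were above every control. Jag1 had a log2 fold change of 0.77 with an SE of 0.429 and a Benjamini-Hochberg adjusted p of 0.455 (edgeR).

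Hes5, the Notch target most used as a readout in ventricular-zone progenitors and the gene with the RBPJ motifs printed above, lies on chromosome 4 at 154960923-154962371 on the plus strand. Its level was 24.0, 20.2 and 29.8 CPM in the controls and 70.0, 40.9 and 42.1 CPM in Ybx1-KO 1, 2 and 3. Every Ybx1-KO library was above every control, with Ybx1-KO 1 well above the other two. The means were 24.7 ± 4.85 and 51.0 ± 16.5 CPM (SD, n = 3 each), and the lowest Ybx1-KO library was 1.37 times the highest control. The log2 fold change was 1.05 with an SE of 0.383, the Benjamini-Hochberg adjusted p (edgeR) was 0.432 and the exact permutation p was 0.1. The fold change ran from 0.73 to 1.21 when each library was left out. The groups were separated in each of the 24 alternatives. Many of these leave out a library or reuse the same normalized values, so they could hardly undo a separation. The study itself named Hes5 among genes lower in Ybx1-KO NPCs, by RNA-seq and by RT-qPCR of NPCs from brains, which is the opposite direction. Gm20421, on the other strand, shares 433 exonic bases with Hes5 and had 12 to 49 counts in each library.

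Hes1, a target of Notch and of other pathways whose level oscillates in progenitors, lies on chromosome 16 at 30064384-30067796 on the plus strand. It stood at 9.26, 7.74 and 9.75 CPM in the controls, a narrow range. In the Ybx1-KO libraries it stood at 35.9, 18.2 and 6.30 CPM. Ybx1-KO 1 and 2 were above every control and Ybx1-KO 3 was below every control. The means were 8.92 ± 1.05 and 20.1 ± 14.9 CPM (SD, n = 3 each), a log2 fold change of 1.18 with an SE of 0.538. The adjusted p (edgeR, Benjamini-Hochberg) was 0.444, and the exact permutation test gave 0.4. Without Ybx1-KO 1 the log2 fold change was 0.43.

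Hes6 is an unlike member of the family, which is switched on by proneural factors in differentiating cells and works against Hes1. It lies on chromosome 1 at 91411483-91414038 on the minus strand. It stood at 33.4, 37.2 and 53.4 CPM in the controls and, in Ybx1-KO, at 167, 42.0 and 46.9 CPM. Ybx1-KO 2 and 3 lay inside the control range, and the difference rested on Ybx1-KO 1. Over all 6 libraries the log2 fold change was 1.04 with an SE of 0.496, and the adjusted p (edgeR, Benjamini-Hochberg) was 0.444. Without Ybx1-KO 1 the log2 fold change was 0.088.

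Hey1, a repressor of the Hes-related family, lies on chromosome 3 at 8663359-8667256 on the minus strand. It stood at 32.3, 31.7 and 36.4 CPM in the controls and, in Ybx1-KO, at 28.9, 50.3 and 25.5 CPM. Only Ybx1-KO 2 was above the controls, and the other Ybx1-KO libraries were below all of them. Hey1 had a log2 fold change of 0.06 with an SE of 0.381, and its adjusted p (edgeR, Benjamini-Hochberg) was 0.954.

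**Figure D2:**
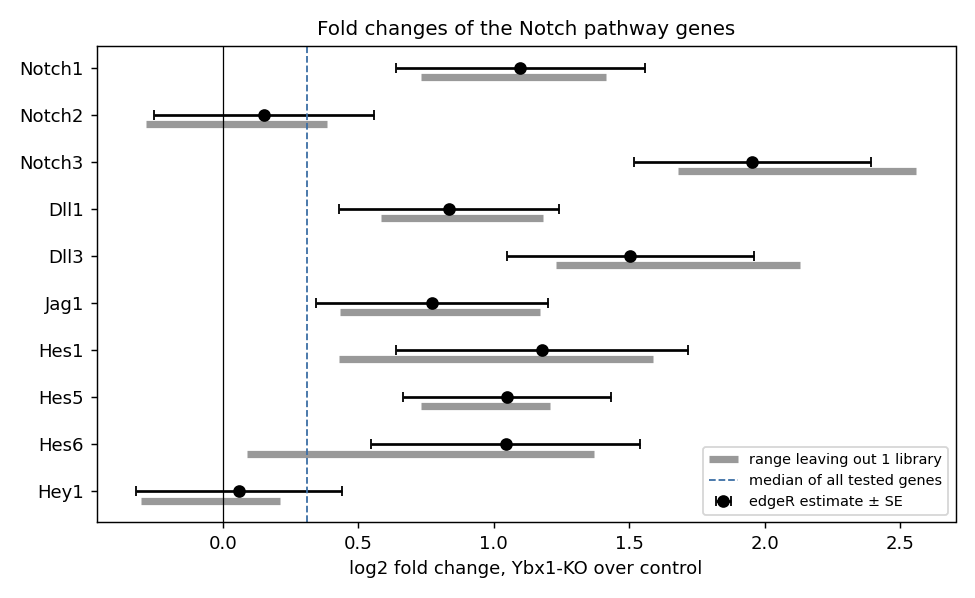
Log2 fold change of each of the 10 genes, Ybx1-KO over control, from edgeR with its SE, beside the range found when each library was left out in turn (grey) and the median of all genes tested, 0.31 (dashed line). Notch3 and Dll3 lie farthest to the right at 1.95 and 1.5, and the ranges of Notch2 and Hey1 cross 0.

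Over the 10 genes, Ybx1-KO 2 held the highest level of the 6 libraries in 7 and Ybx1-KO 1 in 3. The genes topped by Ybx1-KO 1 were Hes1, Hes5 and Hes6, and those topped by Ybx1-KO 2 were the receptors, the ligands and Hey1. Control 2 was the highest control for Notch1, Notch3, Dll1, Dll3 and Jag1, and control 1 was the lowest of all libraries in 5 genes. The Hes genes and the receptors and ligands thus differed in which library of each group stood highest.

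Compared per length, as CPM per kilobase of exon, Hes6 and Hes5 headed both groups, and Hes1 was in place 7 of 10 in each. In the controls the order by mean was Hes6 at 22.9, Hes5 at 18.1, Hey1 at 10.3, Dll1 at 7.73, Notch1 at 7.07, Dll3 at 4.97, Hes1 at 4.38, Notch2 at 4.10, Jag1 at 3.37 and Notch3 at 2.44 CPM per kilobase. Among these neighbours only Hes5 and Hey1 had ranges that did not overlap. In the Ybx1-KO libraries the order was Hes6 at 47.1, Hes5 at 37.4, Notch1 at 15.1, Dll3 at 14.1, Dll1 at 13.8, Hey1 at 10.7, Hes1 at 9.89, Notch3 at 9.46, Jag1 at 5.75 and Notch2 at 4.55 CPM per kilobase. There the ranges lay apart between Hes5 and Notch1 and between Notch3 and Jag1. Notch3 was last of the 10 in the controls and stood above Jag1 and Notch2 in the Ybx1-KO libraries.

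The sum over the receptors was 10.9, 17.3 and 12.6 CPM per kilobase in the controls and 26.1, 39.2 and 22.1 in the Ybx1-KO libraries, without overlap. The sum over the ligands was 11.9, 24.5 and 11.8 against 31.3, 45.3 and 24.3 CPM per kilobase, where control 2 came just above Ybx1-KO 3. The sum over the Hes and Hey genes was 50.5, 48.9 and 67.4 against 170.1, 77.6 and 67.7 CPM per kilobase, and control 3 and Ybx1-KO 3 were nearly level, with no overlap.

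Shares within a library do not depend on scaling between libraries. Notch3 made up 12.6, 23.8 and 14.5% of the summed receptor level per length in the controls and 33.7, 26.5 and 41.5% in the Ybx1-KO libraries, without overlap. The means were 17.0 ± 5.95% and 33.9 ± 7.48% (SD, n = 3 each). Notch2 made up 46.0, 19.4 and 31.1% in the controls and 10.5, 17.6 and 18.2% in the Ybx1-KO libraries, every one of them below every control. The share of Notch1 was 50.8 ± 8.34% in the controls and 50.7 ± 8.94% in the Ybx1-KO libraries. The receptor make-up thus held a larger share of Notch3 and a smaller share of Notch2 in the Ybx1-KO libraries, with control 2 the control nearest to them in both shares. The mean Notch2 level itself was not lower, at 4.10 CPM per kilobase in the controls and 4.55 in the Ybx1-KO libraries.

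Dll3 made up 26.3, 34.6 and 28.1% of the ligand level per length in the controls and 42.4, 41.8 and 41.4% in the Ybx1-KO libraries. The Ybx1-KO libraries agreed within about a percentage point and lay above every control. Dll1 made up 49.2 ± 4.38% and 40.8 ± 3.95% and Jag1 21.2% and 17.3% on average. Among the Hes and Hey genes the mean shares were 7.96% and 8.82% for Hes1, 32.5% and 38.2% for Hes5, 40.8% in both groups for Hes6, and 18.7% and 12.2% for Hey1, whose share was lowest in Ybx1-KO 1 at 5.21%.

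**Figure D3:**
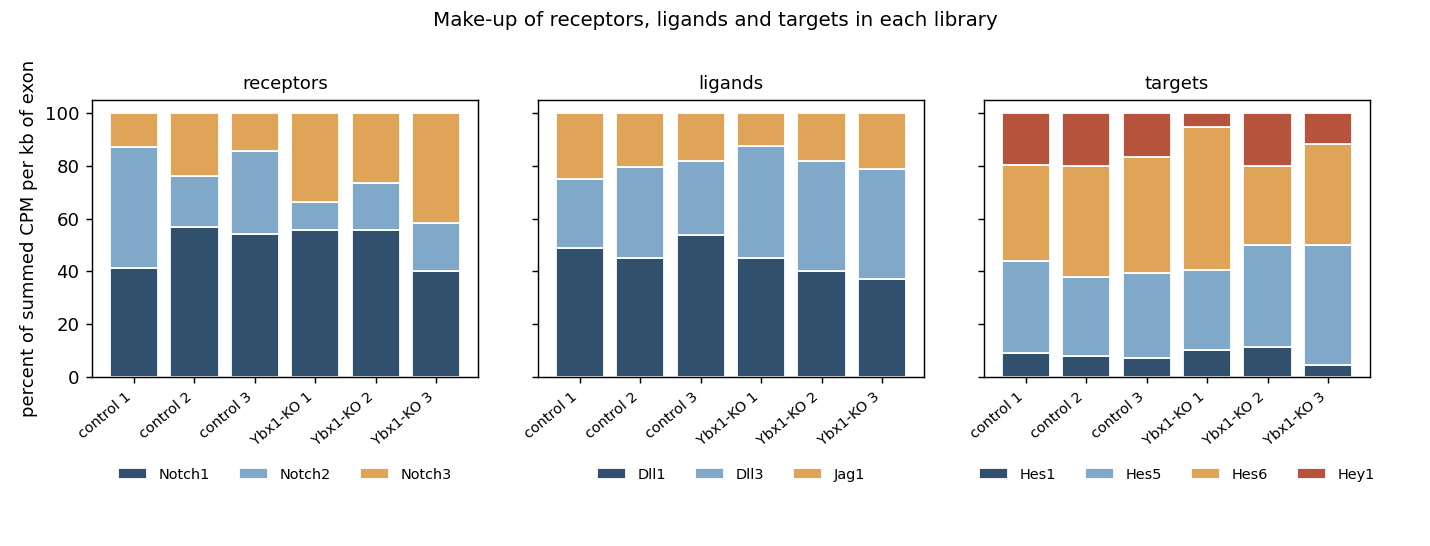
Percent of the summed CPM per kilobase of exon that each receptor, ligand and Hes or Hey gene made up in each of the 6 libraries, as stacked bars. Notch3 fills 26.5 to 41.5% of the receptor bar in the Ybx1-KO libraries and 12.6 to 23.8% in the controls, and Dll3 fills 41.4 to 42.4% of the ligand bar against 26.3 to 34.6%.

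Of 5 within-library ratios, that of Dll3 to Dll1 was separated between the groups. On the log2 scale it was -1.45, -0.95 and -1.50 in the controls and -0.65, -0.51 and -0.41 in the Ybx1-KO libraries, a difference of 0.78. The two-sided exact permutation test gave 0.1, which is the smallest possible, and 0.5 after Benjamini-Hochberg adjustment over the 5 ratios. The ratio of Notch1 to Notch2 was 1.01 higher in Ybx1-KO, with overlap and an exact permutation p of 0.2. The differences were 0.17 for Hes5 to Hes1, -0.25 for Hes6 to Hes5 and 0.046 for Dll1 to Jag1, with exact permutation p-values of 1.0, 0.6 and 0.9.

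The rest of the pathway was read from a list of 72 genes arranged by role, of which 69 were tested. Its median log2 fold change was 0.085 beside 0.31 for all genes, and 39 of the 69 were higher. That order depended on the filter and on Ybx1-KO 3. With the filter applied to the controls alone and the fit run again, the medians were 0.18 for the list and 0.022 for all genes. Without Ybx1-KO 3 they were 0.25 and -0.066. Of the 69, 8 passed the filter on low values through the Ybx1-KO libraries alone, namely Notch4, Dll4, Jag2, Dlk2, Neurl2, Psen2, Hes3 and Hes7, so that a high Ybx1-KO level was a condition of their being tested. The 61 that also passed in the controls had a median of 0.011 in the main fit, with 31 higher. Of the 69, 0 were called by edgeR, beside 0% of all genes. An unadjusted p below 0.05 was found for 5 higher genes, Notch4, Nrarp, Heyl, Id3 and Ccnd1, and for 1 lower gene, Aph1b, beside 6.96% and 4.26% of all genes. The libraries of the groups did not overlap for 7 higher and 5 lower genes, beside 4.99% and 8.17% of all genes, and for 6 higher and 5 lower among the 61.

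Of 13 other targets 11 were tested, and 9 of these passed the filter in the controls too. Over the 9 the median log2 fold change was 0.62, with 7 higher and 4 of them at an unadjusted p below 0.05, and with Hes3 and Hes7 added it was 1.11. The lower ones, Fabp7 and Myc, had log2 fold changes of -0.66 and -0.58 with overlap. Nrarp, a Notch target that feeds back to limit the pathway, stood at 14.9, 22.9 and 17.6 CPM in the controls and at 70.0, 38.8 and 27.7 CPM in Ybx1-KO 1, 2 and 3, each of them above the controls. The log2 fold change of 1.30, with an SE of 0.415, had an adjusted p of 0.391 (edgeR, Benjamini-Hochberg).

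Heyl, a Hes-related target that is also strong in mural cells, stood at 6.04, 8.71 and 6.85 CPM in the controls and, in Ybx1-KO, at 14.0, 43.3 and 9.09 CPM. The groups were separated narrowly, and Ybx1-KO 2 was far above the rest. The lowest Ybx1-KO library, Ybx1-KO 3 with 65 counts, was 1.04 times the highest control. The level spread over exons in Ybx1-KO 3 was not subtracted from that value, so the separation is uncertain. Id3, an inhibitor of proneural proteins that answers to Bmp as well as Notch signals, stood at 21.9, 16.0 and 18.3 CPM in the controls and, in Ybx1-KO, at 174, 37.3 and 37.2 CPM. Ybx1-KO 1 held most of the difference, which came to a log2 fold change of 2.15 with an SE of 0.541 and an adjusted p of 0.267 (edgeR, Benjamini-Hochberg). Hey2, at 3.55 to 6.15 CPM in the controls and 1.94 to 5.60 CPM in the Ybx1-KO libraries, was below the filter and not tested. Hes3 and Hes7 had at most 3.36 and 2.52 CPM in any library, and their fitted fold changes, the highest of the list, are not read further.

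The other receptors and ligands numbered 6, of which only 2 passed the filter in the controls, so no median is read from them. Notch4 and Dll4, both known from endothelium, had log2 fold changes of 1.38 and 1.5, and Jag2 had 0.39, all after passing the filter through the Ybx1-KO libraries alone. In ligand endocytosis, which generates the pull on the receptor, the median was -0.20 over the 3 genes that passed in the controls, with Mib1 at -0.33. Among the enzymes that add sugars to the receptors the median was 0.25 over 6 genes, with Lfng at 0.66 and Mfng at 0.46. Pofut1 was separated and higher, at 11.3 to 21.8 CPM in the controls and 21.9 to 23.8 CPM in the Ybx1-KO libraries, and Poglut1 was separated and lower, at 49.8 to 51.1 and 31.9 to 46.2 CPM.

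Among the proteases that cut the receptor the median was 0.074 over the 8 genes that passed in the controls, with Adam10 at 0.14. The Aph1 subunits of gamma-secretase differed in direction. Aph1a stood at 9.12 to 12.7 CPM in the controls and 14.2 to 20.3 CPM in the Ybx1-KO libraries, and Aph1b at 21.3 to 27.4 CPM in the controls and 3.64 to 18.6 CPM in the Ybx1-KO libraries, both without overlap. Psen2, past the filter through the Ybx1-KO libraries alone, stood at 2.76 to 3.35 CPM in the controls and 3.68 to 11.2 CPM in the Ybx1-KO libraries.

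The nuclear partners had medians below 0. The coactivators had a median of -0.081 over 9 genes, with Rbpj, the DNA-binding partner of every Notch receptor, at -0.21 and Maml1 at 0.61, and Kat2b separated and lower at 13.45 to 23.2 against 8.71 to 9.81 CPM. The corepressors had a median of -0.16 over 14 genes, with Cir1 and L3mbtl3 separated and lower at 27.0 to 33.2 against 10.8 to 24.4 CPM and 32.4 to 36.6 against 19.1 to 30.3 CPM. The inhibitors and turnover genes had a median of -0.094 over 11 genes, counting Nrarp here too. Numb, which blocks Notch in the daughter cell that inherits it, was at -0.094, and its relative Numbl was at 0.55, separated, with 22.8 to 37.5 CPM in the controls and 38.5 to 55.3 CPM in the Ybx1-KO libraries. The Deltex genes Dtx1 and Dtx4 were at -0.82 and 0.72 with overlap.

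**Figure D4:**
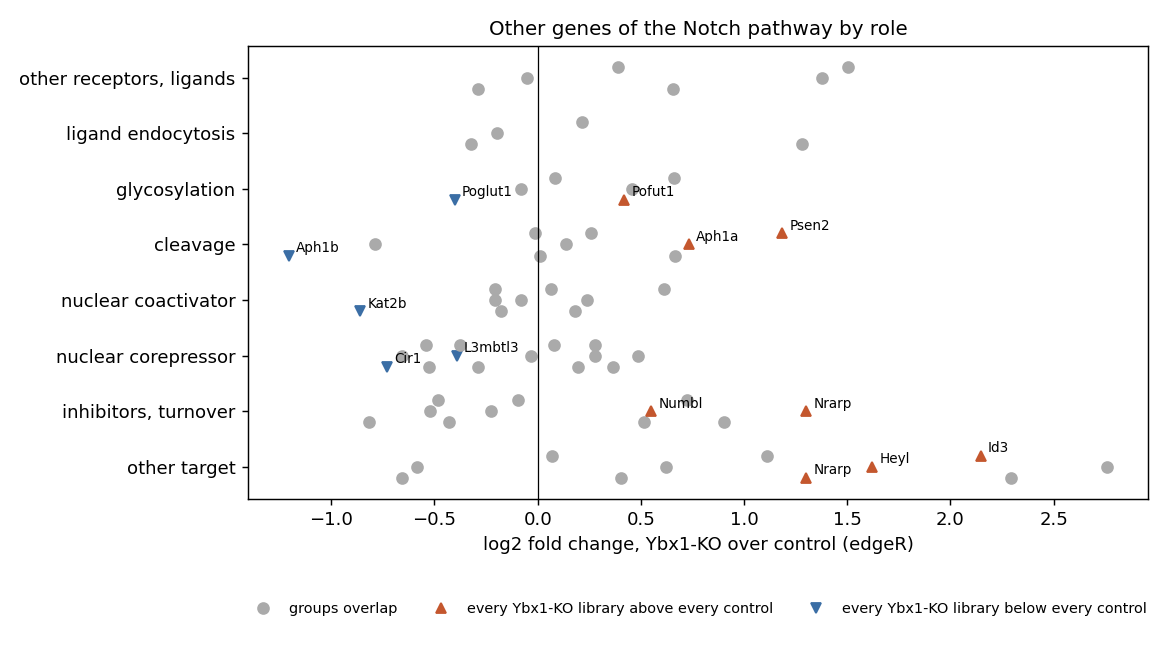
Log2 fold change, Ybx1-KO over control, of the tested genes of the wider Notch pathway list by role, each point a gene and Nrarp drawn under both of its roles. Triangles mark genes whose groups did not overlap, 7 higher and 5 lower, and the points farthest to the right are Hes3 and Hes7, which passed the filter on low values through the Ybx1-KO libraries alone.

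Markers of progenitors, of proneural cells and of brain regions varied beside these genes. The 11 radial glia genes outside the 10 summed to 1913, 2002 and 2022 CPM in the controls and to 2401, 2278 and 1432 CPM in Ybx1-KO 1, 2 and 3. Of these 11, 6 were higher in Ybx1-KO, 2 were separated and higher and 1 was separated and lower, and their median log2 fold change was 0.074. Nes, an intermediate filament of progenitors, had the highest log2 fold change of this list, 1.44, where the lowest was -1.78. It was separated at 63.0, 129 and 52.6 CPM against 283, 213 and 165 CPM. The 12 proneural genes outside the 10, a class of factors that switches on Dll1, Dll3 and Hes6, summed to 310, 405 and 402 CPM in the controls and to 765, 559 and 279 CPM in Ybx1-KO 1, 2 and 3. Of these 12, 10 were higher in Ybx1-KO, and 4 were separated and higher and 1 separated and lower, beside 4.99% and 8.17% of all genes. Neurog2 had a log2 fold change of -0.82 with overlap, and Neurog1 was separated and higher, at 2.55, 11.4 and 7.80 CPM against 21.5, 35.1 and 20.0 CPM.

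The 20 neuronal genes summed to 4600, 8005 and 5693 CPM in the controls and to 6503, 6156 and 2665 CPM in Ybx1-KO 1, 2 and 3, with overlap. The 14 telencephalon genes summed to 1651, 257 and 1801 CPM in the controls and to 367, 331 and 131 CPM in Ybx1-KO 1, 2 and 3. The 25 Hox genes, which mark the hindbrain and spinal cord, summed to 119, 1013 and 294 CPM in the controls and to 1263, 1312 and 598 CPM in Ybx1-KO 1, 2 and 3. Control 2 was thus near the Ybx1-KO libraries in both region lists, and it was also the control with the highest Notch1, Notch3, Dll1, Dll3 and Jag1. For Hes1 and Hes5 control 2 was instead the lowest control. The part of regional make-up in the differences of the 10 genes was not tested.

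Other cell types were summed in the same way. The 10 mesenchyme genes summed to 921, 172 and 235 CPM in the controls and to 149, 158 and 95.0 CPM in Ybx1-KO 1, 2 and 3, lower in each. The 10 myeloid genes summed to 78.9, 13.0 and 25.9 CPM against 9.93, 8.99 and 48.8 CPM, with overlap. The erythroid genes, 9 with rows, summed to 1200, 969 and 515 CPM against 1215, 485 and 200 CPM, with overlap. The level spread over exons in Ybx1-KO 3 was not subtracted from any of these sums. The part of these cell types in the differences of the 10 genes was not tested.

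**Figure D5:**
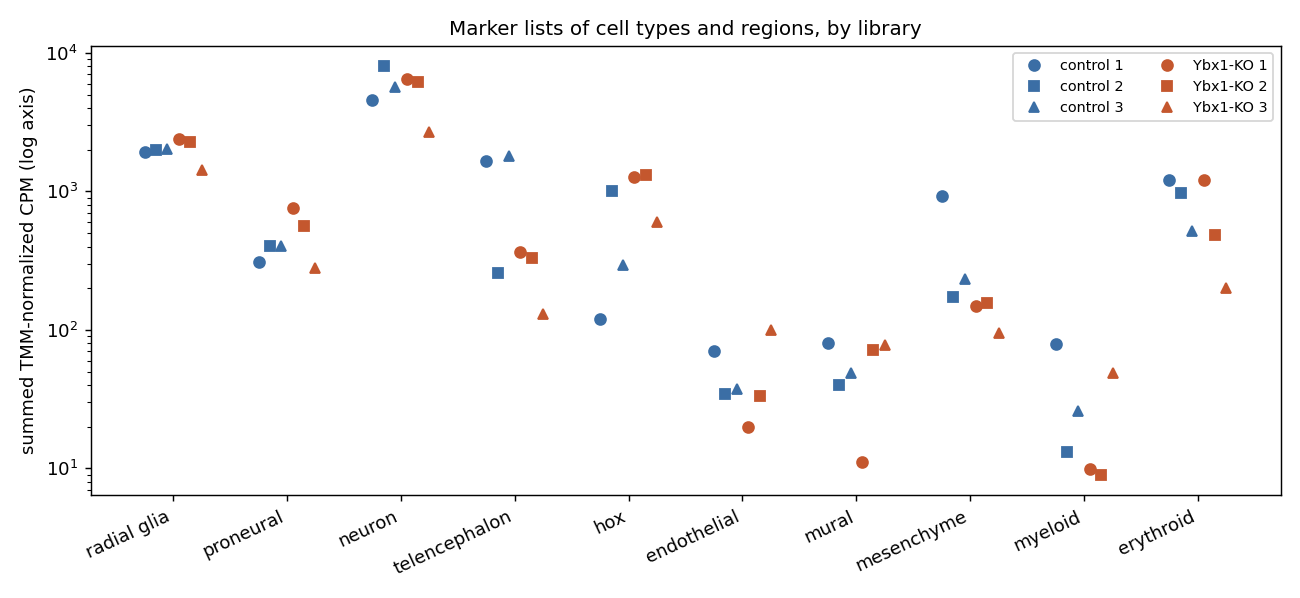
Summed TMM-normalized CPM of marker lists of cell types and brain regions in each of the 6 libraries, on a log axis, with the 10 genes left out of each list. Control 2 lies with the Ybx1-KO libraries in the telencephalon list, at 257 CPM against 131 to 367 CPM, and far above the other controls in the Hox list, at 1013 CPM.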

How the data were processed

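The authors mapped paired-end reads, counted them on GENCODE genes with HTSeq 0.6.1p1 and deposited raw counts per gene symbol, 1 table a library, without normalization or pooling. The builds mm10 and GRCm38.p5 are named in the submitters' processing notes. The aligner and the strand setting are not given in the sources used here. Each of the 6 libraries entered, with 4743279 to 23883542 counts on genes. No 2 libraries agreed within sampling noise. Read pairs carry no molecular identifiers, so count limits cover counting error only.

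Counts were normalized by TMM and tested with edgeR 4.0.16 (quasi-likelihood, no covariate) in R 4.3.3, with Benjamini-Hochberg adjustment over genes whose mean FPKM passed 1 in at least 1 group. Union exon lengths came from GENCODE M21, matched by symbol for 47624 genes and by older symbol for 365. The remaining 3744 had no length. The common biological coefficient of variation was 0.800. The study's limma-voom (limma 3.58.1) and DESeq2 1.42.0 were alternatives. Single genes and ratios also had two-sided exact permutation tests. The code was tested on simulated counts. The 10 genes were named in full, and of the wider list a set chosen by role plus every gene whose groups did not overlap. An item that the rule names is not reported here. Ccnd1, Fabp7, Myc and the named markers outside that rule were chosen after their values were seen. The 10 genes and all lists were chosen with earlier results of these data known. Promoter sequences are those of RefSeq on GRCm38.p6.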

Additional observations from a re-analysis of the deposited data

How the results depend on the processing

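Of 240 values for the 10 genes, from 24 alternatives each, 227 kept direction and call, 7 gained a call (6 for Notch3 and 1 for Dll3) and 6 changed sign, and 8 genes stayed positive throughout. Hey1 was at -0.034 without a filter, at -0.016 with the title number as a block in limma-voom, and between -0.30 and 0.21 with a library left out, and Notch2 between -0.28 and 0.38. The genes called, 0 of 10, became 1 with DESeq2 and 0 to 1 with a library left out. Separated higher genes, 3 of 10, became 5 with upper-quartile scaling and 6 with total counts. They numbered 5 with the filter on control FPKM, 2 without a filter, where Dll3 overlapped, and 3 to 6 with a library left out. Among all genes they numbered 1064 of 21329 in the main fit, 1307 with upper-quartile scaling and 1253 with total counts. They were 1097 of 14095 with the control filter, 898 of 42828 without a filter and 1305 to 2394 of 21329 with a library left out. Hey1 was separated and lower without Ybx1-KO 2. Unadjusted p-values below 0.05, 5 of 10, became 3 without a filter, 8 with the control filter and 3 to 7 with a library left out, all for higher genes. Among all genes such p-values in that direction numbered 1484 of 21329 in the main fit, 2396 of 42828 without a filter and 920 of 14095 with the control filter. With a library left out they numbered 626 to 2435 of 21329. The median of the 10 became 0.83 with the title block and 0.77 to 1.24 with a library left out. In the wider list, 1 gene was called with DESeq2, 1 without a filter and 0 to 2 with a library left out. The separated higher genes there became 3 without a filter and 8 to 17 with a library left out, and unadjusted p-values below 0.05 numbered 3 to 8. The separated lower genes of that list numbered 5 without a filter and 6 to 14 with a library left out. Among all genes the separated lower ones numbered 2486 of 42828 without a filter and 2178 to 3322 of 21329 with a library left out. Over all genes 214 were called with DESeq2, 193 without a filter and 0 to 420 with a library left out. The cause was not tested.

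With a library left out, Mib1 ran from -0.67 to 0.18, Lfng from -0.17 to 1.03, Adam10 from -0.10 to 0.30 and Numb from -0.33 to 0.071. Numb was positive at 0.097 with total counts, 0.0039 with a CPM filter and 0.063 with the control filter.

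Running the filter again after leaving a library out gave, without Ybx1-KO 2, Notch2 at -0.37, Hey1 at -0.37 and Lfng at -0.24, 1 of the 10 called, 2 of the wider list and 725 of all genes. Without Ybx1-KO 1 it gave Adam10 at -0.065, a median of the 10 of 0.72, 2 of the 10 called, 1 of the wider list and 696 of all genes. Without Ybx1-KO 3 it gave a median of 1.28, and 6 of the 10 separated and higher. There 18 of the wider list were separated and higher and 6 separated and lower, beside 2092 and 2503 of 15184 genes. Without control 2 it gave Mib1 at 0.18, Numb at 0.021, 1 of the 10 called and 73 called over all genes. There 6 of the 10 were separated and higher, beside 1826 of 21507 genes. Without control 1 it gave Numb at 0.067 and 3 of the 10 at an unadjusted p below 0.05, all higher, beside 627 of 21062 genes in that direction. Without control 3 it gave Adam10 at -0.097, and 3 of the 10 and 3 of the wider list at such a p, all higher, beside 627 of 21511 genes. There 12 of the wider list were separated and higher and 11 separated and lower, beside 1718 and 3093 of 21511 genes.

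No paired analysis was possible because the titles of the groups share fewer than 2 replicate numbers, and the numbers 1 to 3 used here follow accession order. A title number block within groups had a consensus correlation of 0.214 in limma-voom and gave Notch3 an adjusted p of 0.647. Depth was lowest in Ybx1-KO 3, where Hes1 had the fewest counts of the 10.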
